A study of Mus musculus with 4 samples.

Results

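The genes described here are imprinted genes, of which 10 were listed by name: Mest, Peg3, Igf2r, Grb10, Cdkn1c, Plagl1, Sgce, Impact, Gnas and Ndn. They were matched from Ensembl identifiers to mouse symbols, and 7 of the 10 are among the 12208 genes of the table. Peg3, Cdkn1c and Ndn are not analysed here. RNA was sequenced from 3T3 cells, labelled as a pre-osteoblast line, that served as controls or received recombinant LTα1β2, and were taken at 24 h or 48 h. Each of the 4 groups was 1 library: control at 24 h, control at 48 h, treated at 24 h and treated at 48 h. The labels give no genotype, dose or clone, and the name 3T3 is shared by fibroblast lines. LTα1β2 is the membrane-type lymphotoxin whose receptor signals through NF-κB. The question was whether the fall of Mest after treatment was shared by the other listed genes. Mest was already known from an earlier reading of these data to be among the lowest genes, so its own fall is the starting point and not a finding.

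Imprinted genes are transcribed mainly or only from the copy inherited from 1 parent, which is set by DNA methylation laid down in the germ line at control regions. Many paternally expressed genes promote growth before birth and many maternally expressed genes restrain it, and a number of them are expressed together in embryonic mesenchyme and are turned down as tissues mature. Plagl1 encodes a zinc finger transcription factor described as a hub of such a co-expressed network. The table gives 1 value per gene without parental alleles, so expression from either copy was not measured, and the data show only total transcript levels.

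Mest fell strongly, Plagl1 fell to a smaller extent, and the remaining 5 genes did not pass the test. In 3T3 cells treated with LTα1β2, Mest was at 0.396 of control at 24 h and 0.242 at 48 h, and Plagl1 at 0.698 and 0.519. Grb10 was also lower at both times, at 0.838 and 0.655 of control, without passing. Sgce, Igf2r, Gnas and Impact were between 0.911 and 1.01 of control at 24 h and between 0.738 and 0.979 at 48 h.

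The promoter windows of Mest, Plagl1 and Grb10 are printed because these are the 3 listed genes with the largest differences. They are RefSeq windows on GRCm38.p6, which may not be the authors' build, and run from 250 bases before to 50 bases after the start of transcription. Where a gene has several windows, the window with the most CpG dinucleotides is given. Capitals mark TGCCGC on either strand, the hexamer that the imprint-protecting zinc finger protein ZFP57 binds when it is methylated.
Mest promoter window, chr6:30737800-30738099, plus strand: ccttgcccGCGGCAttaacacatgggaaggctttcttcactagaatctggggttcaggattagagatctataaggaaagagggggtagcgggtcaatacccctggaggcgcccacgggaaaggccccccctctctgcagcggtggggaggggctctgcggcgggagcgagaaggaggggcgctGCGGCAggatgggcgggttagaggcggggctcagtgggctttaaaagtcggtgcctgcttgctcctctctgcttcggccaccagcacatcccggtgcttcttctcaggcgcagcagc
Plagl1 promoter window, chr10:13090582-13090881, plus strand: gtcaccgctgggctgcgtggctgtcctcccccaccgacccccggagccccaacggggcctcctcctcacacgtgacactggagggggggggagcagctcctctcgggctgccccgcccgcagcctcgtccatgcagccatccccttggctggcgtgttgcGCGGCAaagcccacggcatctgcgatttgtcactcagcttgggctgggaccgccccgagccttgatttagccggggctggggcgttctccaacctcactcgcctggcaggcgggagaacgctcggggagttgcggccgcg
Grb10 promoter window, chr11:12037371-12037670, minus strand: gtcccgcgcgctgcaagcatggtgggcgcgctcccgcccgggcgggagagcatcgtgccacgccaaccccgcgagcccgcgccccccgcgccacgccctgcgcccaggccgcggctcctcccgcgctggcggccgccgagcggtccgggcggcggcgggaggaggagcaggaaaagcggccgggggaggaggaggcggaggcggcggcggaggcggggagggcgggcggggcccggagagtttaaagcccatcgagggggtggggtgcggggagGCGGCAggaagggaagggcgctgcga

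The hexamer TGCCGC occurs 2 times in the Mest window, 1 time in that of Plagl1 and 1 time in that of Grb10. It is absent from the windows of Igf2r, Gnas, Peg3 and Ndn. It is also absent from another window of Mest (chr6:30733256-30733555) and the other window of Grb10 (chr11:12027922-12028221). Of all 32817 windows in the RefSeq table, 11.6% hold it. The hexamer itself holds a CpG and the median window has 7, so this share is not a like background for windows chosen as rich in CpG. The windows of Mest, Plagl1 and Grb10 hold 17, 26 and 45 CpG dinucleotides. The richest windows of Igf2r and Gnas hold 34 and 40, so this count does not separate the genes that fell, and other windows of Mest and Grb10 hold 8 and 9. The κB consensus bound by NF-κB, searched on both strands, was found in none of the windows read for the listed genes and in 8.46% of all windows. These are matches of letters and say nothing of binding in these cells. Windows were read for 7 of the 10 listed genes, 5 of them genes in the table. None was read for Sgce, Impact or Cdkn1c. The hexamer, CpG and κB comparisons thus leave out Sgce and Impact, which are in the table and did not pass. Whether their promoters hold these letters was not tested.

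Mest also carries a microRNA gene, Mir335, on its own strand (chr6:30741299-30741396). Its mature products are printed with the seed, bases 2 to 8, in capitals because they are made from within Mest. MicroRNAs are not measured in this table.
mmu-miR-335-5p, chr6:30741314-30741336, plus strand: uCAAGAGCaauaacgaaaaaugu
mmu-miR-335-3p, chr6:30741354-30741375, plus strand: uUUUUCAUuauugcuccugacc

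Facts of the whole series that bear on these genes are few. Levels are in CPM, a gene's reads per 1000000 reads of its library, and libraries held 11355974 to 15995777 reads. The treated 48 h library stood apart in transcript length: weighting each gene by its reads, the median transcript had 2446 bases, against 2825 to 2887 in the other 3 libraries. Of 8 osteoblast lineage markers 6 are in the table, with a summed level of 17079 CPM (24 h) and 15897 CPM (48 h) in control libraries against 11574 CPM and 9649 CPM in those given LTα1β2, most of it Col1a1. Runx2, Sp7, Col1a1 and Dmp1 fell, while Bglap (1.13 to 1.33 CPM in the 4 libraries) and the matrix protein gene Spp1 (ratios to control of 1.16 at 24 h and 1.45 at 48 h) did not pass. Of 5 fibroblast and mesenchyme markers 4 are in the table, summing to 6290 CPM and 6871 CPM without and 5134 CPM and 5176 CPM with LTα1β2; Col3a1 and Pdgfrb fell, and Vim (0.882 and 0.927) and Pdgfra (1.32 and 1.02) did not pass. Of 5 macrophage markers 3 are in the table, summing to 57.4 to 85.9 CPM, most of it Lyz2, and of 4 endothelial and 4 epithelial markers 0 are. Of 3 muscle markers 1 is, Des, at 3.74 to 7.25 CPM. Of 4 adipocyte markers 1 is, Fabp4, at 1.94 CPM and 1.45 CPM in control and 2.40 CPM and 6.69 CPM in treated cells, and it rose (log2 fold 0.93 ± 0.23, limma, adjusted p = 0.00267). With treatment some of these markers were lower, as Mest and Plagl1 were, and others were higher. The part of these changes in the fall of Mest and Plagl1 was not tested. In bulk RNA, fewer expressing cells and less RNA per cell cannot be told apart.

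In the text below, a gene is said to have risen or fallen only where it passed an additive limma fit across 12160 genes (log2(CPM + 1), treatment and time as terms, Benjamini-Hochberg adjusted p below 0.05). As no group has a replicate, that fit treats both times as repeats of 1 comparison. It gave each gene the spread typical of its level rather than its own. Ratios at a single time compare 2 libraries, and their 95% intervals (exact, conditional binomial) cover counting error only.

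Mest (chr6:30723547-30748465, plus strand, GENCODE M21 on GRCm38) encodes an enzyme of the α/β-hydrolase fold family in the endoplasmic reticulum. It is expressed from the paternal copy, abundantly in embryonic mesoderm and in growing fat. Its level was 34.7 CPM in control at 24 h, 41.1 CPM in control at 48 h, 13.7 CPM in treated cells at 24 h and 9.95 CPM in treated cells at 48 h. Both treated libraries were thus far below both controls, and the lowest value was that of the treated 48 h library. The ratio to control was 0.396 at 24 h (95% counting interval 0.336 to 0.466) and 0.242 at 48 h (0.196 to 0.297). The log2 fold in the additive fit was -1.61 ± 0.18 (SE; limma, adjusted p = 6.1e-16), the 6th lowest of the 12160 genes.

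Plagl1 (chr10:13060504-13131694, plus strand), also paternally expressed, had control levels of 30.4 CPM at 24 h and 31.2 CPM at 48 h, and levels of 21.2 CPM and 16.2 CPM after LTα1β2. The groups did not overlap, and the controls lay within their counting error of each other. Its ratio to control was 0.698 at 24 h (0.604 to 0.806) and 0.519 at 48 h (0.434 to 0.619). The log2 fold was -0.70 ± 0.18 (limma, adjusted p = 0.00421), the 121st lowest. The call depended on how the spread was set: with the prior degrees of freedom held at 10, which gives weight to each gene's own residual, its adjusted p was 0.148 where that of Mest was 0.00531 (limma). Leaving out the control 24 h or the control 48 h library also ended the call, with log2 folds of -0.72 and -0.68. Those fits hold a single control library and no time term, and few genes of the whole table passed in them. Without the treated 24 h or the treated 48 h library the call held.

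Grb10 (chr11:11930508-12038683, minus strand) encodes an adaptor protein that binds the insulin and IGF1 receptors and restrains their signalling, and outside the nervous system it is expressed mainly from the maternal copy. It was the most abundant of the listed genes, also per length, with 461 CPM at 24 h and 476 CPM at 48 h in control, and 386 CPM and 312 CPM after treatment. The treated libraries were again below both controls, by more than the counting error. The ratio was 0.838 at 24 h (0.810 to 0.868) and 0.655 at 48 h (0.628 to 0.682). In the additive fit the log2 fold of -0.43 ± 0.18 did not pass (limma, adjusted p = 0.153). Without the treated 24 h library its log2 fold was -0.59, and without the treated 48 h library -0.28, both without a time term. Each of these fits holds a single treated library, so the spread comes from the controls alone.

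**Figure D1:**
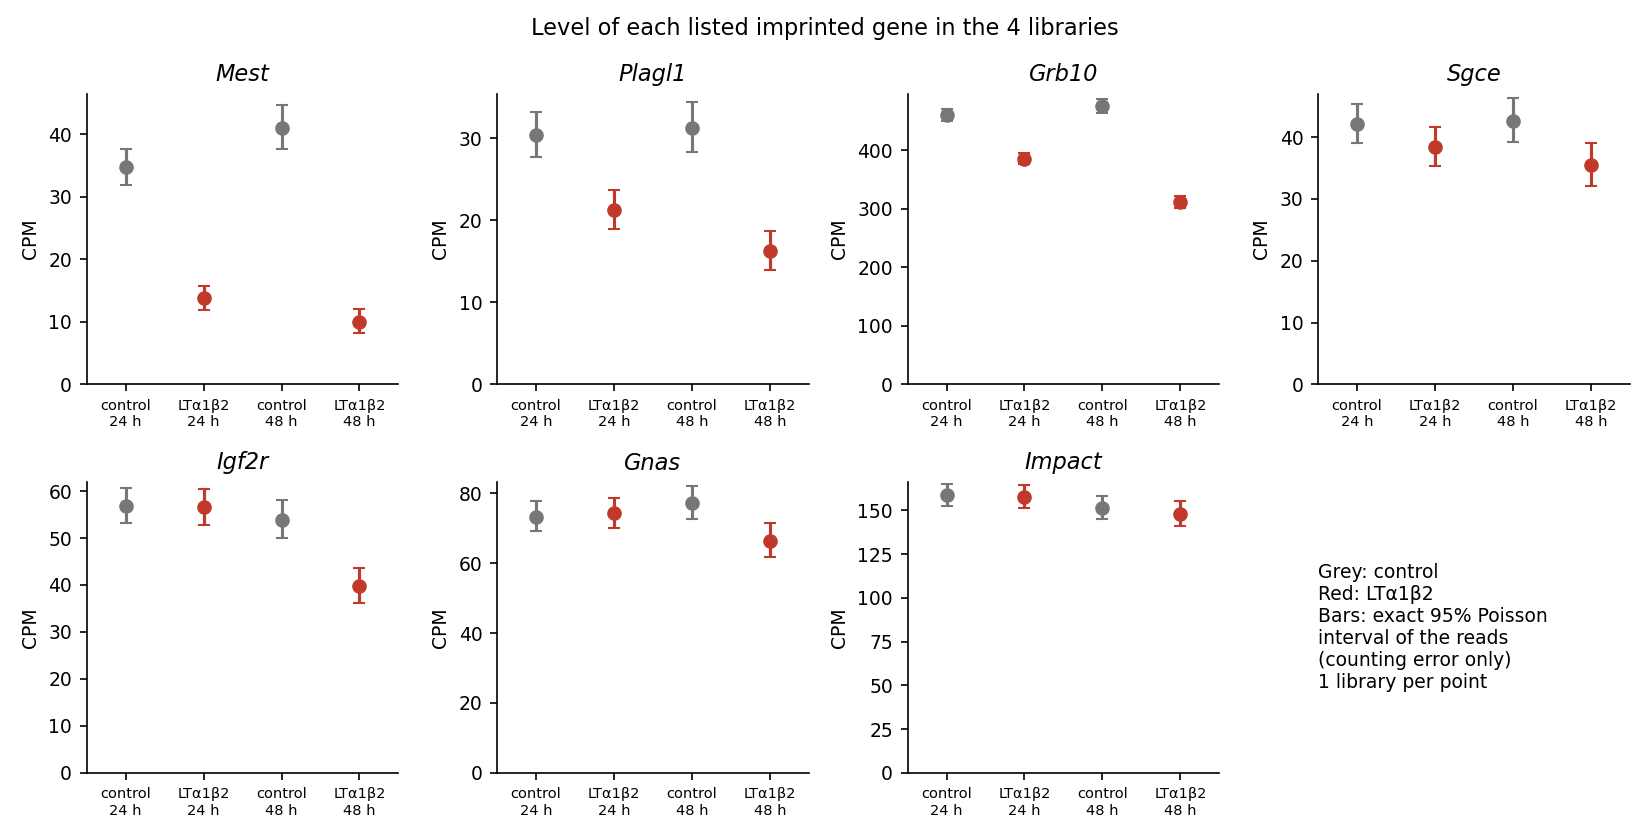
CPM (vertical axis, from 0) of the 7 listed genes in the 4 libraries, grey for control and red for LTα1β2. Bars are exact 95% Poisson intervals of the reads. Mest lies at 34.7 and 41.1 CPM in grey against 13.7 and 9.95 CPM in treated cells, while Impact lies between 148 and 159 CPM in all 4 libraries.

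Igf2r encodes the receptor that takes up IGF2 for degradation and carries lysosomal enzymes, and in the mouse it is expressed from the maternal copy. The 24 h libraries had nearly equal levels, 56.9 CPM in control and 56.6 CPM after LTα1β2, and the 48 h libraries 53.9 CPM and 39.8 CPM. Only the treated 48 h library was low. The ratio was 0.995 at 24 h (0.905 to 1.09) and 0.738 at 48 h (0.655 to 0.832), and the log2 fold of -0.22 ± 0.17 did not pass (limma, adjusted p = 0.60). Its transcript of 8887 bases is the longest of the 7. With each library's trend with transcript length removed, its 48 h log2 fold went from -0.43 to -0.05. Without the treated 48 h library its log2 fold was 0.03, and without the treated 24 h library -0.47, each from a fit with a single treated library. The antisense RNA gene Airn overlaps Igf2r by 28354 bases on the other strand. The annotated exons of Airn do not overlap those of Igf2r, but the span of Airn covers the start of Igf2r. Whether antisense reads entered the count of Igf2r was not tested.

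Sgce encodes ε-sarcoglycan, a membrane protein of the dystrophin-associated complex, and is paternally expressed. Control cells held 42.1 CPM at 24 h and 42.7 CPM at 48 h, and treated cells 38.4 CPM and 35.5 CPM. The treated libraries were below both controls, but by little. The ratio was 0.911 at 24 h (0.813 to 1.02) and 0.831 at 48 h (0.730 to 0.947), with a log2 fold of -0.20 ± 0.17 (limma, adjusted p = 0.658).

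Gnas encodes the stimulatory G protein subunit that couples receptors such as that of parathyroid hormone to cyclic AMP. The locus gives rise to maternally, paternally and biallelically expressed transcripts, which the table sums. At 24 h the level was 73.4 CPM without and 74.3 CPM with LTα1β2, and at 48 h 77.3 CPM and 66.5 CPM. The ratio was 1.01 (0.932 to 1.10) and then 0.860 (0.781 to 0.945). The groups overlapped, with log2 fold -0.10 ± 0.17 (limma, adjusted p = 0.853).

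Impact encodes an inhibitor of the activation of the kinase GCN2 and is paternally expressed in the mouse. Its 24 h levels were 159 CPM in control and 158 CPM after treatment, and its 48 h levels 151 CPM and 148 CPM. The groups overlapped. Its ratio was 0.995 at 24 h (0.940 to 1.05) and 0.979 at 48 h (0.917 to 1.05). Its log2 fold was -0.02 ± 0.17 (limma, adjusted p = 0.976).

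**Figure D2:**
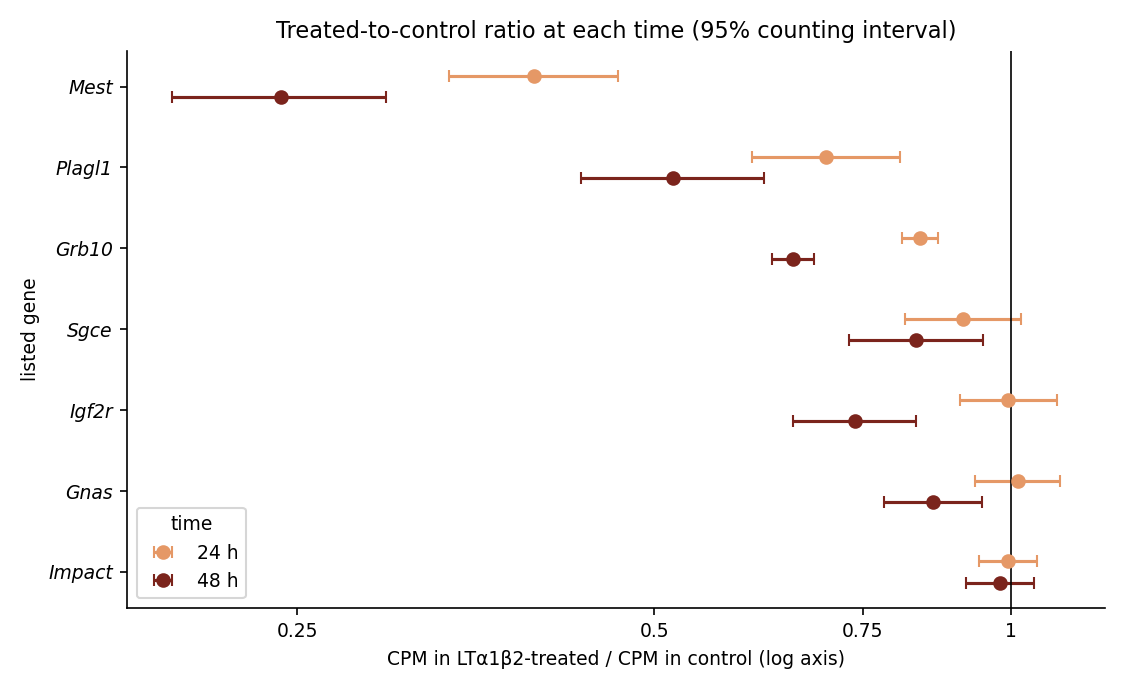
Ratio of CPM in treated to control cells at 24 h (light) and 48 h (dark) for the 7 listed genes, on a log axis, with exact 95% counting intervals. At 24 h the intervals of Mest, Plagl1 and Grb10 lie below 1, and at 48 h those of all but Impact do, with Mest at 0.242 and Plagl1 at 0.519.

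Counted together, 2 of the 7 listed genes fell and 0 rose in the additive fit, where 2.27% of all 12160 genes fell and 2.92% rose. Mest was 1 of the 2 and was known beforehand, so 1 of the other 6, Plagl1, fell with it. At an unadjusted limma p below 0.05 Grb10 joined them, where 16.3% of all genes stood, and the other 4 had unadjusted p from 0.203 to 0.910. At least 2-fold lower at 24 h was 1 of the 7, Mest, against 0.181% of all genes, and at 48 h likewise Mest alone, against 0.715%. At least 1.5-fold lower at 48 h were Mest, Plagl1 and Grb10, against 6.28% of all genes. Both treated libraries were below both controls in 4 of the 7, Mest, Plagl1, Grb10 and Sgce, and above both in 0. Of all genes 21.3% had both treated libraries below and 20.8% above. Mest, known beforehand, enters each of these counts. Of the 6 other genes, 0 were at least 2-fold lower at either time, and 3 had both treated libraries below both controls. The median log2 fold of the 6 genes other than Mest was -0.07 at 24 h and -0.34 at 48 h, beside 0.02 and -0.09 over all genes tested. With the length trend removed the 48 h median of these 6 was -0.21, beside -0.00 over all genes.

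Time was compared within each treatment. Between 24 h and 48 h in control, Mest was 1.18-fold higher (1.05 to 1.34), while the ratio was 1.01 to 1.05 for Plagl1, Grb10, Sgce and Gnas, 0.948 for Igf2r and 0.954 for Impact. For these 6 genes the counting intervals of the control ratio held 1. In treated cells Mest was lower at 48 h than at 24 h, at a ratio of 0.724 (0.570 to 0.915). Igf2r was at 0.703 (0.626 to 0.789), Plagl1 at 0.764 (0.633 to 0.918) and Grb10 at 0.808 (0.774 to 0.842). Sgce, Gnas and Impact were at 0.925, 0.894 and 0.939. The treated 48 h library enters all of these ratios, and with 1 library each no time difference was tested.

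Per kilobase of transcript, the order of levels in control at 24 h was Grb10 (96.9 CPM per kilobase), Impact (42.2), Sgce (25.4), Gnas (24.5), Mest (13.5), Plagl1 (7.70) and Igf2r (6.40). Sgce and Gnas changed places in control at 48 h, at 25.8 and 25.9. In treated cells Mest took the lowest place, at 24 h with 5.37 CPM per kilobase beside 5.38 for Plagl1 and 6.37 for Igf2r, and at 48 h with 3.89 beside 4.11 and 4.48. Mest rested there on 206 reads at 24 h and 113 at 48 h, and Plagl1 on 318 and 184. The order of Mest and Plagl1 in treated cells is thus within counting error. The transcript length used is the median over a gene's annotated transcripts, and isoforms expressed in these cells may differ from it.

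Neighbours of Mest and Sgce were looked at next. Copg2, a coat protein gene of Golgi transport whose transcripts meet those of Mest tail to tail on chromosome 6, is maternally expressed in some mouse tissues. Its control levels were 117 CPM at 24 h and 138 CPM at 48 h, and its treated levels 102 CPM and 105 CPM. Both treated values were below both controls, at ratios of 0.865 (0.808 to 0.926) and 0.761 (0.706 to 0.819), and the log2 fold of -0.30 ± 0.17 did not pass (limma, adjusted p = 0.385). The annotations of Mest and Copg2 overlap by 912 bases on opposite strands, and whether reads were counted by strand is not given, so a part of either count could come from the other gene. Peg10, a retrotransposon-derived gene that shares a bidirectional promoter region with Sgce, was near the lower limit of the table, with 1.06 CPM in control against 2.07 CPM in treated cells at 24 h, and 0.993 CPM against 1.23 CPM at 48 h. Its log2 fold of 0.37 ± 0.25 did not pass (limma, adjusted p = 0.507).

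The wider imprinted genes were taken from lists of 28 other paternally and 37 other maternally expressed genes. Several of the latter are imprinted only in placenta or brain. Of the 28, 10 are in the table; 1 fell, Peg13, and 0 rose. Of the 37, 18 are in the table; 1 rose, Ampd3, and 0 fell. Together, 2 of the 28 genes in the table passed, 1 in each direction, against 2.27% falling and 2.92% rising among all genes. The median log2 fold at 48 h of these 28 was -0.12, beside -0.09 over all genes, with both treated libraries below both controls in 6 and above in 5, against 21.3% and 20.8% of all genes.

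Peg13 is a paternally expressed non-coding RNA that lies within Trappc9 on the same strand of chromosome 15. At 24 h it stood at 37.6 CPM in control and 26.8 CPM after LTα1β2, and at 48 h at 31.8 CPM and 18.0 CPM. The groups did not overlap. The ratios were 0.713 (0.627 to 0.810) and 0.566 (0.476 to 0.670), and the log2 fold was -0.63 ± 0.18 (limma, adjusted p = 0.0121). This call was lost by limma with the prior degrees of freedom held at 10 (adjusted p = 0.181) and with median-of-ratios rescaling (-0.60, adjusted p = 0.0873). With no time term it was also lost (limma, adjusted p = 0.422). It was lost too without the treated 48 h library (log2 fold -0.35). The same held without the control 24 h or 48 h library (log2 fold -0.51 and -0.75), in fits where few genes of the whole table passed. Trappc9 was at 1.01 and 0.774 of control and did not pass (log2 fold -0.18 ± 0.17, limma, adjusted p = 0.695). Reads from introns of the host gene could count towards Peg13.

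Ampd3 encodes an AMP deaminase of purine metabolism and is reported as maternally expressed in placenta. Control cells held 9.44 CPM at 24 h and treated cells 20.4 CPM, a ratio of 2.16 (1.77 to 2.64). At 48 h the levels were 8.47 CPM and 14.9 CPM, a ratio of 1.76 (1.37 to 2.25). Both treated libraries were above both controls, with a log2 fold of 0.89 ± 0.19 (limma, adjusted p = 0.000303). With the prior degrees of freedom held at 10 the adjusted p was 0.0772 (limma), and with no time term 0.203. Without the control 24 h or 48 h library the log2 fold was 0.96 and 0.82. It did not pass there, in fits where few genes of the whole table did. Rnf141 overlaps Ampd3 on the other strand.

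The most abundant genes of the wider lists, beside Copg2, had ratios nearer 1. Cd81, a tetraspanin gene, had 322 CPM without and 317 CPM with LTα1β2 at 24 h, and 332 CPM and 309 CPM at 48 h. Nap1l4, a histone chaperone gene, was at 1.06 and 1.14 of control, and H13, which encodes signal peptide peptidase, at 0.917 and 0.843. None of the 3 passed (limma, adjusted p = 0.921 for Cd81, 0.788 for Nap1l4 and 0.676 for H13).

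**Figure D3:**
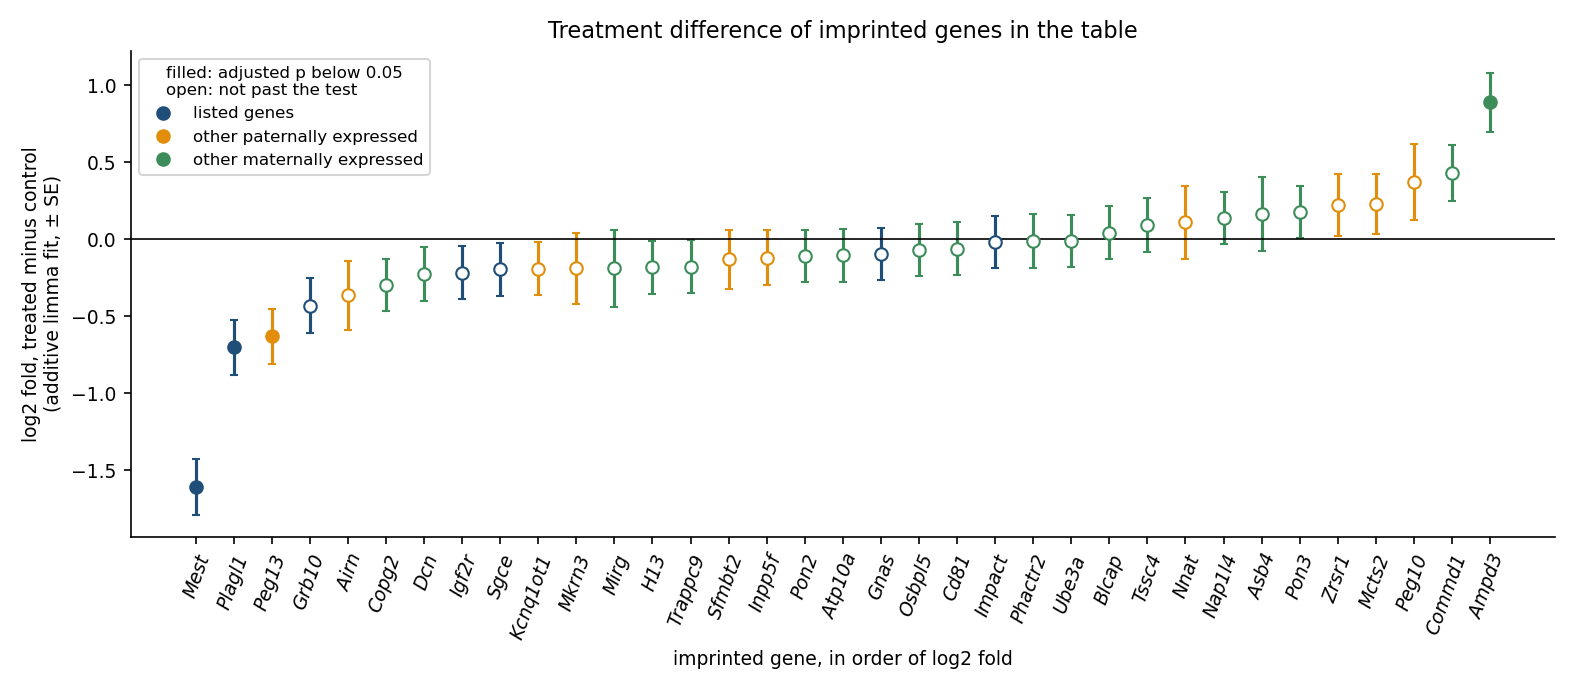
Log2 fold (treated minus control, additive limma fit, ± SE) of the imprinted genes in the table, in order of their fold. Blue marks the 7 listed genes, orange 10 other paternally and green 18 other maternally expressed genes, and filled points passed the test. Mest, at -1.61, lies apart from all others, with Plagl1 (-0.70) and Peg13 (-0.63) next and Ampd3 (0.89) at the other end.

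Genes that set or keep imprints were read from a list of 17, of which 15 are in the table. They include the maintenance methyltransferase gene Dnmt1, its partner Uhrf1, the corepressor gene Trim28 and Zfp57. In the additive fit all 15 had a log2 fold below 0, as had 55.6% of all genes. By limma 0 of these 15 passed in either direction, and 2 had an unadjusted p below 0.05, a share no higher than the 16.3% of all genes. These were Tet2, which encodes a 5-methylcytosine dioxygenase, with a log2 fold of -0.54 (adjusted p = 0.0598), and Zfp57, with -0.40 (adjusted p = 0.23). Zfp57 had 20.5 CPM without and 15.1 CPM with LTα1β2 at 24 h, and 16.6 CPM and 12.4 CPM at 48 h. Both Tet2 and Zfp57 were named after their values were seen. With limma voom on recovered reads 0 of the 15 passed, also with 2 at an unadjusted p below 0.05, against 16.2% of all genes. With median-of-ratios rescaling at infinite prior degrees of freedom, chosen after seeing the data, 1 of the 15 fell, Tet2, where 459 of all genes did. Without the treated 24 h library, which leaves the treated 48 h library alone against the controls, 10 of the 15 fell, in a fit where 3063 of all genes did. The list's median log2 fold was 0.03 at 24 h and -0.29 at 48 h, and -0.07 at 48 h with the length trend removed.

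The genes nearest to Mest in both shape and size of change over the 4 libraries were then listed. Values were not scaled, so a gene of like shape but smaller changes, such as Plagl1, lies further away. By Euclidean distance between log2(CPM + 1) values centred on each gene's mean, the 6 nearest of 12159 other genes were Igfbp5, Cyp26b1, Thsd4, Sp7, Fbn2 and Ntrk3, at distances from 0.16 to 0.40. Igfbp5 encodes an IGF-binding protein, Cyp26b1 an enzyme that breaks down retinoic acid, Sp7 the osteoblast transcription factor osterix, Fbn2 the microfibril protein fibrillin-2 and Ntrk3 a neurotrophin receptor. Igfbp5, the nearest, had 19.7 CPM in control and 7.34 CPM after LTα1β2 at 24 h, and 20.5 CPM and 4.67 CPM at 48 h. Among the listed genes Plagl1 was nearest to Mest, at a distance of 0.92 and place 104, followed by Grb10 at place 510. Igf2r, Sgce, Gnas and Impact took places 2155 to 6212. The 6 are the nearest by choice among all genes, so their closeness is a description and carries no test.

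**Figure D4:**
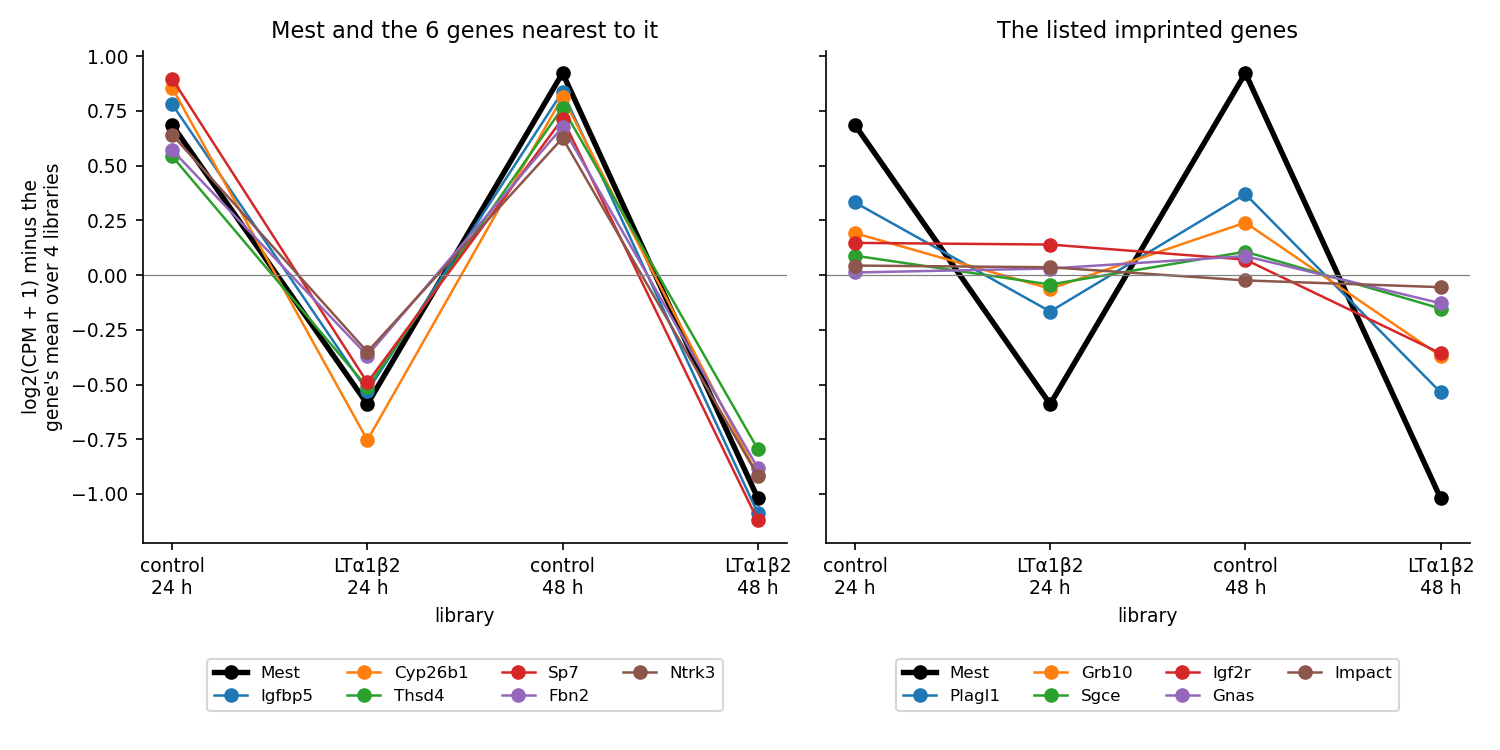
Log2(CPM + 1) minus each gene's mean over the 4 libraries, for Mest with its 6 nearest genes (left) and for the 7 listed genes (right). Lines only join the values of a gene. The 6 genes on the left follow Mest within distances of 0.16 to 0.40, while on the right Plagl1 follows it at a smaller amplitude and Impact stays near 0.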

How the data were processed

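The authors deposited 1 table of CPM values for 12208 genes, with 1 column for each of the 4 libraries and a sum of 1000000 per column. Per the labels' protocols, libraries came from total RNA with a strand-keeping kit and were sequenced as read pairs. The submitters' processing notes name edgeR 3.30.0. Which aligner, counter, genome build and strand setting the authors used is not given in the sources used here. The table holds no zeros, and its lowest values correspond to 9 to 12 reads, so genes silent in any library are not analysed here. Every value was a whole multiple of 1 read's worth within 0.01 of a read, which gave the reads per library used for intervals.

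Symbols matched 12205 identifiers. Positions and lengths are from GENCODE M21 (GRCm38), in which 11716 identifiers matched with their version. A transcript length is the median over a gene's basic transcripts. The 12160 genes averaging 1 CPM or more were fitted with limma 3.58.1 (R 4.3.3) on log2(CPM + 1), additive in time and treatment, trended empirical Bayes, two-sided. The fit has 1 residual degree of freedom and its estimated prior degrees of freedom were infinite. It was run on simulated reads that had the same treatment fold at both times and no time effect. That run cannot show how the fit behaves where folds differ between the times. Whether libraries came from separate cultures is not stated, so spread may be technical. The members and lists were chosen with earlier results of these data known.

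Named genes were the listed genes in the table, genes of the wider lists that passed or changed 2-fold at both times, the 4 most abundant of the wider imprinted lists, Copg2 and Peg10 as neighbours, and the 6 genes nearest to Mest. Markers, members that illustrate the imprint maintenance list, and overlapping genes are named outside this rule.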

Additional observations from a re-analysis of the deposited data

Results flagged for a closer look

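Gnas lay on opposite sides of its control at the 2 times, at a ratio of 1.01 at 24 h (95% counting interval 0.932 to 1.10) and 0.860 at 48 h (0.781 to 0.945). The difference between the times was not tested, and the 24 h interval holds 1. With the length trend removed by exon length, the 48 h log2 fold was 0.05, above control.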

How the results depend on the processing

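Mest passed under all 18 other settings of the additive fit, with log2 folds from -1.82 to -1.35 and adjusted p-values of at most 0.0329 (limma). Plagl1 passed under 13 of the 18. It was lost with median-of-ratios rescaling (log2 fold -0.67, adjusted p = 0.0729), with the prior degrees of freedom held at 10 (-0.70, adjusted p = 0.148), with no time term (-0.70, adjusted p = 0.273) and without either control library, the fits without 1 library giving -0.89 to -0.52. Rescaling at infinite prior degrees of freedom, chosen after seeing the data, kept it (adjusted p = 0.000821). Grb10 passed with the length trend removed at infinite prior degrees of freedom (-0.32, adjusted p = 0.0206) or by exon length (-0.32, adjusted p = 0.05), both chosen after seeing the data, and without either treated library (-0.59 to -0.28 without 1 library). Without 1 library Igf2r ranged from -0.47 to 0.0306 and passed without the treated 24 h library. Impact turned above 0 with rescaling (0.0173 at either prior) and with the length trend removed (0.0631 at either prior, 0.0353 by exon length), and ranged from -0.0647 to 0.0262 without 1 library. Gnas turned to 0.0321 with the length trend removed by exon length. The cause was not tested.

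The number of listed genes that fell was 1 with median-of-ratios rescaling, with 10 prior degrees of freedom and with no time term, and 1 to 4 without 1 library. At 48 h, 1 listed gene, Mest, was at least 2-fold lower, against 0.715% of all genes. Counting Mest, which was known beforehand, 3 were at least 1.5-fold lower, against 6.28%. Over all genes, 276 fell and 355 rose. The counts were 84 and 95 with rescaling, 459 and 809 with rescaling at infinite prior degrees of freedom, 419 and 566 with the length trend removed, 514 and 801 with exon lengths, 671 and 911 with the trend removed and an infinite prior, 25 and 39 with a prior of 10, and 11 and 20 with no time term. Without 1 library they were 6 to 3063 and 16 to 1886, the lowest of both without the control 48 h and the highest without the treated 24 h library; such fits hold no time term. Of the other imprinted genes, 0 fell with rescaling, with 10 prior degrees of freedom and with no time term, and 0 to 6 without 1 library. In this group 2 rose with rescaling at infinite prior degrees of freedom and with the trend removed by exon length or at infinite prior degrees of freedom, 0 with a prior of 10 or no time term, and 0 to 5 without 1 library.

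At 48 h alone, median-of-ratios rescaling gave Grb10 a log2 fold of -0.52 instead of -0.61 and removal of the length trend -0.38. That removal gave Impact 0.15, and by exon length it gave Sgce -0.00 and Gnas 0.05. edgeR's quasi-likelihood test was not run, and limma voom on recovered reads was the alternative that used reads. The labels give no replicate numbers, and the time term compares treatments within each time. The 113 to 555 reads behind Mest set the width of the counting intervals given. Those intervals leave out differences between cultures and libraries, so they do not bound the effect of treatment.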
